A study of Mus musculus with 6 samples.

Results

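Neuropilins, plexins and class 3 semaphorins form a guidance system that endothelial cells, which line blood vessels, share with growing axons. The members described here are 10 named genes: the neuropilins Nrp1 and Nrp2, the plexins Plxnd1, Plxna1, Plxna2 and Plxnb2, and the semaphorins Sema3a, Sema3c, Sema3f and Sema3g. The genes were named as a family, with earlier results of these data known. A member was used if its row had a well-formed identifier and a readable value in all 6 libraries, which left 9 of the 10 among 19037 genes kept. Sema3g is not analysed here.

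RNA was sequenced from 3 old and 3 young mice of the strain labelled C57/BL6, with 1 library per mouse. All 6 mice had received acid injury, the tissue was lung, and the cell type was labelled endothelial. The labels give no age in months, no sex, no transgene, no time after injury and no cell isolation step, while their protocol speaks of homogenised tissue, and no uninjured group was used here. The question the design asks is how these cells differed between old and young mice after injury.

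Class 3 semaphorins are secreted proteins. They bind a neuropilin, which has a short intracellular tail and little signalling of its own, and the neuropilin joins a plexin that carries the signal into the cell, where it loosens adhesion and remodels actin. In vessels the neuropilins are also coreceptors for vascular endothelial growth factors (VEGF), and Plxnd1 is the plexin best known from endothelium.

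Regulatory sequence is shown for the members that stood lower in every old library or, for Sema3c, higher. RefSeq promoter entries on mouse build GRCm38.p6 matched 8 of the 10 named members, and not Plxna1 or Sema3f. Each line gives the 250 bases before the start that RefSeq annotates, which for all of them but Plxnd1 lies inside the longer GENCODE gene whose coordinates are given with its values, 5′ to 3′ on the gene's own strand, and capitals mark GGAA or its reverse complement TTCC, the core letters that ETS factors, a family with many endothelial members, bind.
Nrp1 (chr8:128358823-128359072, plus strand): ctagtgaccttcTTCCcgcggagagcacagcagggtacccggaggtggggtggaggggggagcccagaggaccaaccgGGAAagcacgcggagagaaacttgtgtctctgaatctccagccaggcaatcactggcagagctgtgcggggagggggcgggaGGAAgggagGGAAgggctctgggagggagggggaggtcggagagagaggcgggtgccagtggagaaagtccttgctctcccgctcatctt
Nrp2 (chr1:62703067-62703316, plus strand): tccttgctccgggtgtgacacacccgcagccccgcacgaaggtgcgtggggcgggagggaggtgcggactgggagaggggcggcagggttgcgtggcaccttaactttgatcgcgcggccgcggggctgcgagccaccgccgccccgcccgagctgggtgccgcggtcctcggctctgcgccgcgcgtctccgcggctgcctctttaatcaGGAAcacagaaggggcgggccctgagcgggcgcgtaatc
Plxnd1 (chr6:115995006-115995255, minus strand): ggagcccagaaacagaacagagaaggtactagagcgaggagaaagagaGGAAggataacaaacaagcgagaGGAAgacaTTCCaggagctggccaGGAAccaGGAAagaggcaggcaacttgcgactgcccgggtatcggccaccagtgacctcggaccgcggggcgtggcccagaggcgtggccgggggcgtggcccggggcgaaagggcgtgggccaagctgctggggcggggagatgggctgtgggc
Plxna2 (chr1:194619579-194619828, plus strand): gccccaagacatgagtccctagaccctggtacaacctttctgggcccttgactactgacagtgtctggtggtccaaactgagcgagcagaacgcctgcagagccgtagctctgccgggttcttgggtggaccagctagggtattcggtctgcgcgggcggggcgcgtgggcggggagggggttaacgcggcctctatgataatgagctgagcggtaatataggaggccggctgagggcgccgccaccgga
Sema3c (chr5:17574566-17574815, plus strand): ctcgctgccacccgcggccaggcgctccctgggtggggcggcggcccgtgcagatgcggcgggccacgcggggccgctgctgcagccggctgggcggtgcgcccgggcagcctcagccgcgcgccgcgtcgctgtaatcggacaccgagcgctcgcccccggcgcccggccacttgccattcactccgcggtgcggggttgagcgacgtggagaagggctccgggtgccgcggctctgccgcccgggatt

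The GGAA core, searched on both strands, was found 5 times before Plxnd1, 4 times before Nrp1, once before Nrp2 and 0 times before Plxna2 and Sema3c. Of 32851 promoters of the same length, 93.4% held it at least once, with a median of 3 matches. The hypoxia element letters GCGTG stood in all 5 of these windows, 4 times before Plxnd1, and in 28.2% of all promoters. They were absent before the other members with an entry, Plxnb2, Sema3a and Sema3g. The share over all promoters was not matched for GC content. The related letters ACGTG stood before Sema3c alone among the 5 and in 16.6% of all promoters. Its reverse complement is CACGT, so a CACGTG would count on both strands. The GATA letters GATAA were found once each before Plxnd1 and Plxna2, against 22.6% of all promoters. The letters CACCC, bound by Kruppel-like factors, were absent before Plxnd1 alone among the 5, against 52% of promoters holding them. The 5 windows had a GC content of 62.8% to 78.4%. These are matches of letters and not measured binding.

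Values are fragments per kilobase of gene, scaled to library depth (FPKM). Levels set side by side between genes depend on the gene lengths used, from 5197 bases for Sema3f to 17174 for Plxna2 among the members. Each difference is the old mean less the young mean of log2(FPKM + 1), which understates change at low FPKM, and a call is a Benjamini-Hochberg adjusted p below 0.05 in limma over the 10010 genes that averaged 1 FPKM or more. Depth ran from 11381122 to 17931463 implied fragments per library. The labels name separate mice, so the tests measure the spread between mice.

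The libraries differed in more than endothelial genes, and these values stand beside every member below. The summed FPKM of 12 endothelial markers with a usable row (of 14 named) was 44.2 to 154 in old and 537 to 1490 in young libraries. In limma 10 of the 12 were called lower, and each of the 12 was lower in every old library than in every young one. For Pecam1, a junction adhesion molecule, old mice 1, 2 and 3 had 3.73, 6.02 and 7.9 FPKM and young mice 1, 2 and 3 had 111, 80.2 and 40 FPKM. In this order of mice, kept below, Cdh5, the endothelial cadherin, stood at 1.75, 8.84 and 7.58 FPKM (old) against 75, 65.1 and 59.2 FPKM (young). Old libraries held more of the fibroblast list (2085 to 4842 against 108 to 210 summed FPKM, 6 of 6 tested genes called higher), the epithelial list (1289 to 1615 against 115 to 312, 3 of 5 called higher) and the mesothelial list (156 to 361 against 8.85 to 32.3, 3 of 4 called higher). The lymphocyte list summed to 84.6 to 236 FPKM (old) against 5.66 to 57.8 FPKM (young), with 0 of 4 tested genes called. Neutrophil markers summed to 23647 and 23979 FPKM in young mice 2 and 3, to 52.6 in young mouse 1 and to 320 to 904 in the old. Smooth muscle and pericyte markers summed to 1259 FPKM in young mouse 2, against 63.3 and 64 in young mice 1 and 3 and 614 to 799 in the old. Macrophage markers (102 to 311 FPKM in old, 105 to 616 in young) and platelet markers (157 to 378 and 87 to 939) overlapped between the groups. Lymphatic markers summed to 75.3 to 249 against 399 to 759 FPKM. No marker with a usable row was at 0 in all libraries, and Cd4 alone was at 0 in some. In such bulk samples fewer cells of a type and less RNA per cell cannot be told apart, and the part these other cells have in the members' values was not tested.

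**Figure D1:**
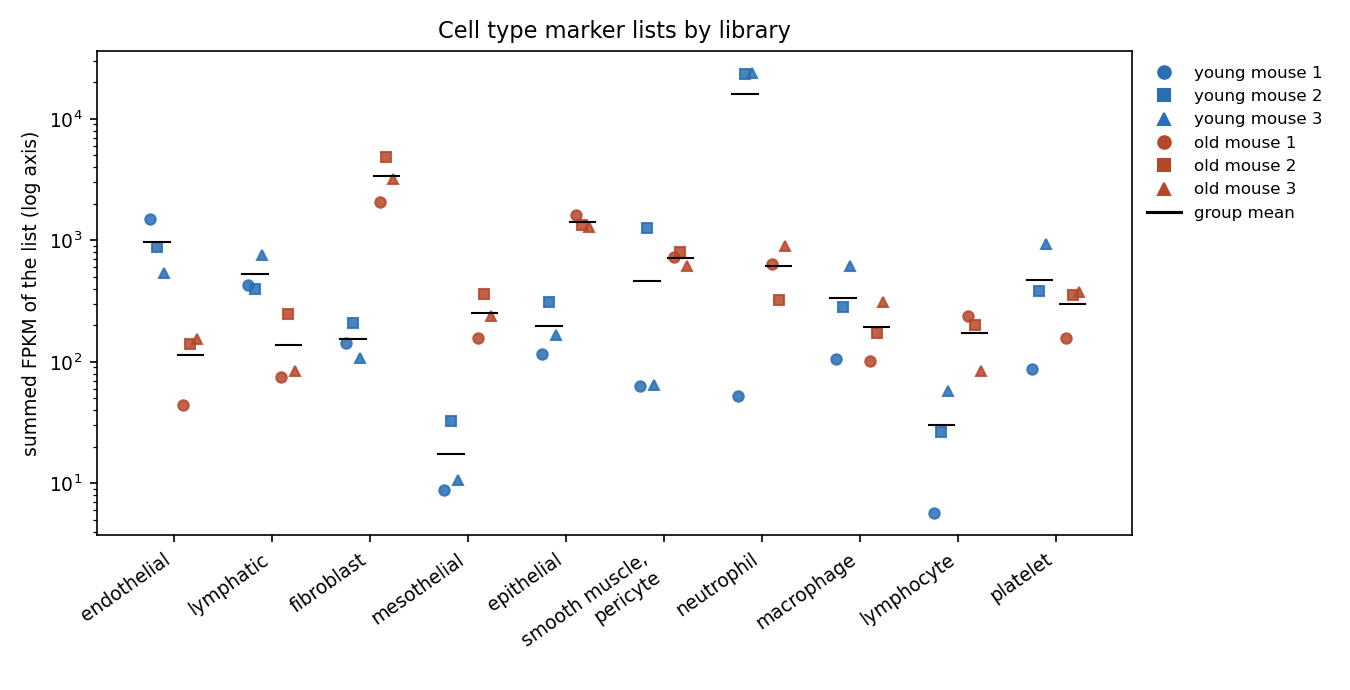
Summed FPKM of each cell type marker list (log axis) for each of the 6 libraries, with the group means as bars. Endothelial sums are lower in every old library (44.2 to 154 against 537 to 1490), fibroblast sums are higher, and the neutrophil sum separates young mice 2 and 3 from young mouse 1.

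Both neuropilins stood lower in every old library. Nrp1 is a receptor for Sema3a and a coreceptor for VEGF-A (chromosome 8, 128358604 to 128503363, plus strand, GENCODE M21 on GRCm38). The old mice 1, 2 and 3 had 11.8, 25.9 and 24.1 FPKM, and the young mice 1, 2 and 3 had 124, 64.6 and 54.3 FPKM, or 921 to 12989 fragments per library. The lowest young library stood well above the highest old one, and the groups did not overlap. The old mean was 20.6 ± 7.67 FPKM and the young mean 81 ± 37.6 FPKM (SD, n = 3 each). The difference of -1.91 ± 0.43 (SE; 95% interval -2.92 to -0.89) on the log2 scale did not pass (limma adjusted p = 0.0541). It passed in 3 of 18 alternatives, those with array weights, with TMM scaling and against young mouse 1 with the spread also from young mice 2 and 3 (lowest adjusted p 0.0393), and not in the other 15 (highest 0.172). Its exons share 80 bases with the microRNA gene Mir1903.

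Nrp2 (chromosome 1, 62703285 to 62818695) binds Sema3f and is known from veins and lymphatic vessels. It was at 0.383, 1.17 and 1.39 FPKM (old) against 10.6, 5.63 and 7.15 FPKM (young), or 60 to 2219 fragments. Every old library stood below every young one. It fell by 2.15 ± 0.32 (SE) on the log2 scale (limma adjusted p = 0.0204). Of 4 lymphatic markers tested, 0 were called lower and 1, Pdpn, higher in limma. Pdpn, shared with epithelium and fibroblasts, was at 16.3 to 23.2 FPKM (old) against 1.58 to 6.52 FPKM (young). Lyve1 was at 3.57 to 29.1 against 54.7 to 252 FPKM, and Flt4 at 0.799 to 2.57 against 4.44 to 38.4 FPKM. The other markers of the list overlapped between the groups. Ccl21a was at 47 to 194 against 138 to 639 FPKM, and Prox1, which was not tested, at 0.266 to 1.42 against 0.584 to 1.78 FPKM.

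Nrp1 exceeded Nrp2 in all 6 libraries. The FPKM ratio of Nrp1 to Nrp2 was 30.8, 22.1 and 17.4 in old mice 1, 2 and 3 and 11.7, 11.5 and 7.6 in young mice 1, 2 and 3. On this linear scale the groups did not overlap. On the log2(FPKM + 1) scale they did, at 3.41 ± 0.21 in old and 3.17 ± 0.36 in young mice (SD, n = 3 each), a difference of 0.24 (exact permutation test, two-sided, p = 0.5). With a pseudocount of 0.1 the difference was 1.02, with an exact permutation p of 0.1, the smallest p that 3 against 3 allows.

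**Figure D2:**
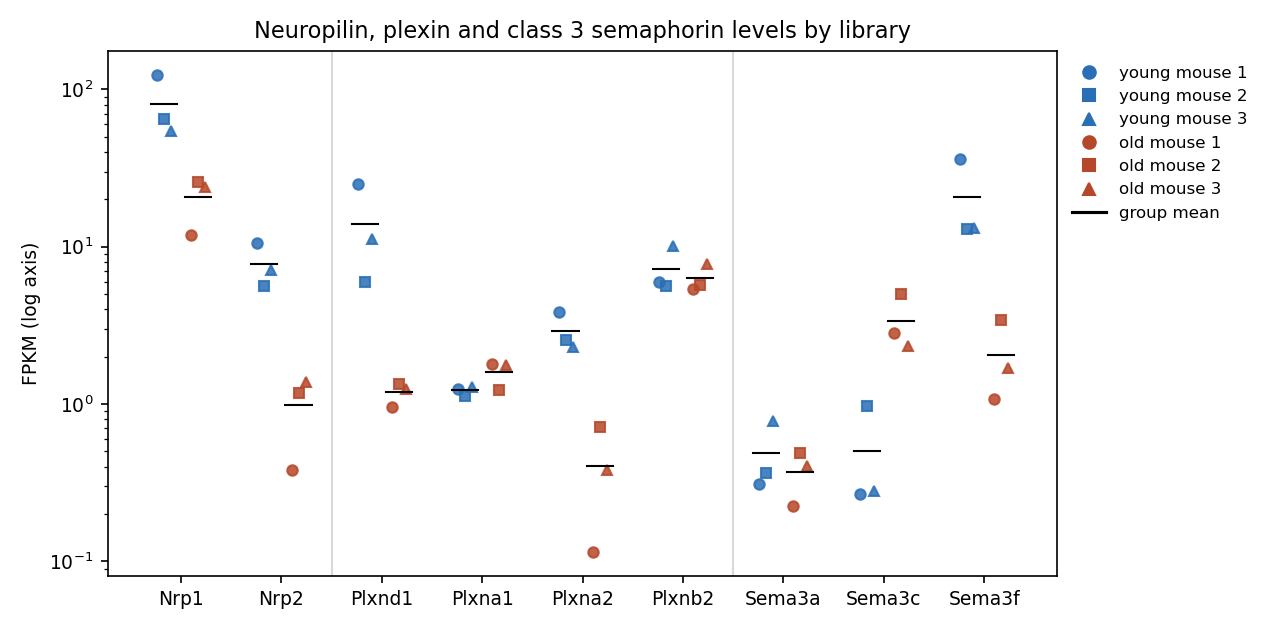
FPKM (log axis) of the 9 members with a usable row in each library, with group means as bars, ordered as neuropilins, plexins and semaphorins. Nrp1, Nrp2, Plxnd1, Plxna2 and Sema3f are lower in every old library, Sema3c is higher in every old library, and Plxna1, Plxnb2 and Sema3a overlap.

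The plexins did not move together. Plxnd1 (chromosome 6, 115954811 to 115995005, minus strand), a receptor of endothelial cells that also binds Sema3e directly, was at 0.963, 1.35 and 1.24 FPKM (old) against 24.9, 5.93 and 11.2 FPKM (young). The old libraries lay close together, and the young ones were spread, with young mouse 1 the highest. It fell by 2.58 ± 0.47 (SE) on the log2 scale (limma adjusted p = 0.031). Plxna2 (chromosome 1, 194618218 to 194816869), a plexin that works with neuropilins, was at 0.115, 0.711 and 0.38 FPKM (old) against 3.86, 2.54 and 2.31 FPKM (young), or 26 to 1175 fragments. The groups did not overlap, and old mouse 1 was the lowest. It fell by 1.48 ± 0.29 (limma adjusted p = 0.0378). This call was lost in 13 of 17 alternatives, and with a pseudocount of 0.01 the difference was -3.12 (adjusted p = 0.0758).

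Plxna1 and Plxnb2 overlapped between the groups. Plxna1 (chromosome 6, 89316314 to 89362620), a neuropilin partner, was at 1.79, 1.22 and 1.76 FPKM (old) against 1.25, 1.12 and 1.29 FPKM (young), a difference of 0.21 (95% interval -0.34 to 0.77; limma adjusted p = 0.609). It shares 970 exon bases with Gm26811, an antisense gene, and no source says whether the counting used strand, so its level is uncertain. Plxnb2 (chromosome 15, 89155549 to 89180788), a receptor for class 4 semaphorins that many cell types use, was at 5.38, 5.73 and 7.73 FPKM (old) against 5.92, 5.62 and 10.1 FPKM (young). Its difference was -0.15 (95% interval -0.82 to 0.53; limma adjusted p = 0.792), and 3 of its 18 alternatives turned the sign, none past the threshold.

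Among the semaphorins, Sema3f and Sema3c moved in opposite directions. Sema3f (chromosome 9, 107681500 to 107710475), a ligand of Nrp2 known to repel tumour cells and restrain vessel growth, was at 1.08, 3.4 and 1.7 FPKM (old) against 36.3, 12.9 and 13.2 FPKM (young), or 74 to 3345 fragments. The lowest young library stood above all old ones. It fell by 2.74 ± 0.47 (SE) on the log2 scale (limma adjusted p = 0.0274). Sema3c (chromosome 5, 17574281 to 17730268), a ligand known from the developing heart outflow tract, was at 2.83, 4.97 and 2.35 FPKM (old) against 0.269, 0.966 and 0.282 FPKM (young), or 30 to 404 fragments. Every old library stood above every young one. It rose by 1.53 ± 0.33 (limma adjusted p = 0.0499). This call was lost in 14 of 17 alternatives, among them pseudocounts of 0.1 (2.64, adjusted p = 0.0579) and 0.01 (2.91, adjusted p = 0.0661) and array weights (adjusted p = 0.0539). Old mouse 2 and young mouse 2 had the highest Sema3c of their groups, and they also had the highest sums of the fibroblast and mesothelial lists (4842 and 361 FPKM in old mouse 2, 210 and 32.3 FPKM in young mouse 2) and of the smooth muscle and pericyte list. That list had 730, 799 and 614 FPKM in old mice 1, 2 and 3. It had 63.3, 1259 and 64 FPKM in young mice 1, 2 and 3. This was the order of Sema3c within each group, although the list overlapped between the groups. Young mice 1 and 3 were nearly equal in the list and in Sema3c, so their order says little. The fibroblast and mesothelial lists were higher in old mouse 3 than in old mouse 1, while Sema3c was lower. Whether those cells have a part in the Sema3c values was not tested. Sema3a (chromosome 5, 13125414 to 13602565), a ligand of Nrp1 known to collapse axon growth cones, was below the filter at 0.224, 0.488 and 0.402 FPKM (old) against 0.309, 0.367 and 0.779 FPKM (young). Without the filter its difference was -0.11 ± 0.18 (limma adjusted p = 0.76).

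Of the 8 members tested, 4 fell, 1 rose and 3 were not called. Of all genes tested, 4.98% were called, 2.03% lower and 2.95% higher. Nrp2, Plxna2 and Sema3c were under 1 FPKM on average in one group and entered the test through the other, so the count is no support for a change of the family. The members' median log2 difference was -1.69, against -0.01 for all genes tested. Groups did not overlap for 6 of the 8, against 31.1% of all genes tested. Every old library was below every young one for 5 members, against 16.7% of genes, and above for 1, against 14.5%.

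These calls rested on few mice. Leaving out old mouse 1, 2 or 3 or young mouse 3 left 0 members called, although 6 of the 8 had an unadjusted p below 0.05 in limma each time, as did 1861 to 2043 of all genes. Leaving out young mouse 1 or young mouse 2 left 3, which were Nrp2, Plxnd1 and Sema3f. Over these 6 fits the adjusted p was 0.0313 to 0.072 for Nrp2, 0.0193 to 0.104 for Plxnd1, 0.0394 to 0.0999 for Sema3f, 0.0717 to 0.109 for Plxna2 and 0.0537 to 0.123 for Sema3c. The difference kept its sign in every one of them for these 5 genes and for Nrp1 (-2.14 to -1.55). Against young mouse 1 alone, Nrp1 differed by -2.61, Nrp2 by -2.58, Plxnd1 by -3.57, Plxna2 by -1.82, Sema3f by -3.68 and Sema3c by 1.74. Young mouse 1 had few neutrophil transcripts and the highest endothelial sum (1490 FPKM). It was the highest young library for all of these genes but Sema3c, for which it was the lowest. With that library as the whole young group, 0 of all genes passed in limma, so the members' calls cannot be read there. With the spread also taken from young mice 2 and 3, Nrp1, Nrp2, Plxnd1 and Sema3f passed (adjusted p 0.0224 to 0.0393), as did 612 genes in all.

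**Figure D3:**
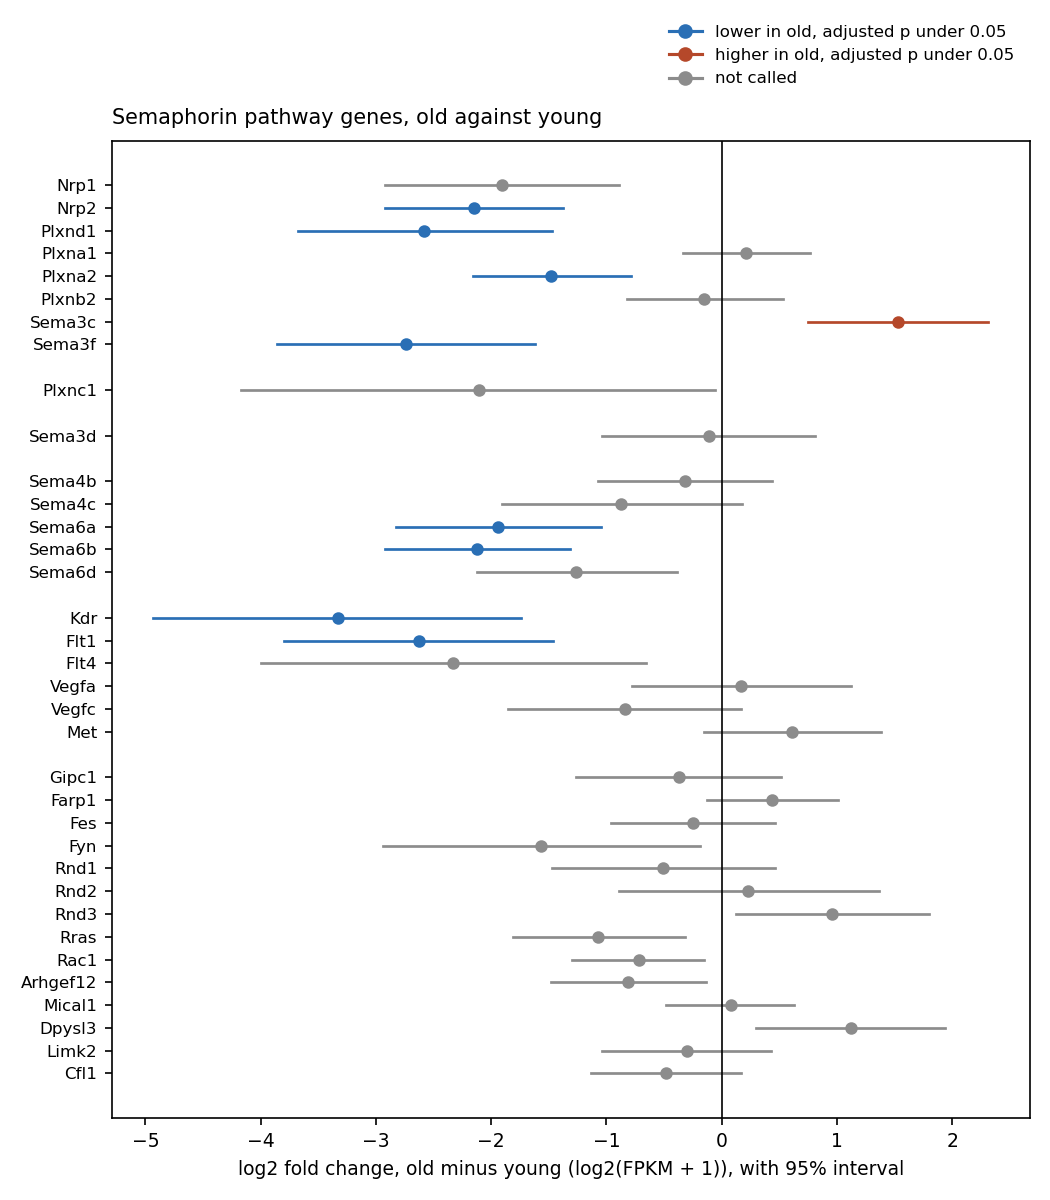
Log2 fold change, old minus young on log2(FPKM + 1), with its 95% interval from limma for the 35 tested members and other pathway genes, grouped from the members down to the intracellular effectors. Called genes are coloured: 8 are lower and 1, Sema3c, is higher in old mice. Of all genes tested, 2.03% were called lower and 2.95% higher.

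The order of the members' levels differed between the groups. In young mice Nrp1 led (81 FPKM), followed by Sema3f (20.8), Plxnd1 (14), Nrp2 (7.78), Plxnb2 (7.21), Plxna2 (2.9), Plxna1 (1.22), Sema3c (0.505) and Sema3a (0.485). Neighbours from Sema3f to Plxnb2 overlapped, as did Sema3c and Sema3a. In old mice Nrp1 led again (20.6 FPKM), and Plxnb2 (6.28) and Sema3c (3.38) came next, ahead of Sema3f (2.06), Plxna1 (1.59), Plxnd1 (1.18), Nrp2 (0.982), Plxna2 (0.402) and Sema3a (0.371). From Sema3c down, every neighbouring pair overlapped in old mice. Sema3f thus stood ahead of Plxnb2 in young and behind it in old mice, and Sema3c stood behind Plxna1 in young and ahead of it in old mice. Old mouse 1 was the lowest old library for Nrp1, Nrp2, Plxnd1, Plxna2 and Sema3f, and it also had the lowest endothelial sum. Young mouse 1 was the highest young library for the same 5 genes and had the highest endothelial sum. Old mouse 1 was also the lowest old library for Plxnb2 and Sema3a, whose groups overlapped and for which young mouse 3 was the highest young library.

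Set beside the endothelial markers of the same library, the members differed, and for Nrp2 and Plxna2 the outcome depended on the scale: as a percent of the markers their groups overlapped, and on log2(FPKM + 1) less the markers they did not. Nrp1 amounted to 431%, 348% and 312% of the mean FPKM of Pecam1 and Cdh5 in old mice 1, 2 and 3 and to 133%, 88.9% and 109% in young mice 1, 2 and 3. Every old library was above every young one. Sema3f amounted to 39.3%, 45.7% and 21.9% in old and 39%, 17.8% and 26.6% in young libraries, which overlapped. Plxnd1 (16% to 35.2% in old, 8.16% to 26.8% in young), Nrp2 (14% to 17.9% and 7.75% to 14.4%) and Plxna2 (4.18% to 9.57% and 3.49% to 4.64%) overlapped too. Plxna1 (16.5% to 65.3% and 1.34% to 2.6%), Plxnb2 (77.1% to 196% and 6.36% to 20.3%), Sema3a (5.2% to 8.17% and 0.332% to 1.57%) and Sema3c (30.4% to 103% and 0.288% to 1.33%) did not. Of all genes tested, 91.8% did not overlap on this scale, 91.6% with every old library above, so the overlap of Sema3f, Plxnd1, Nrp2 and Plxna2 is the less common pattern and the separation of the others is the common one.

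In the test on log2(FPKM + 1) minus the mean of both markers, 98.2% of genes were called higher in old mice, as were 6 of the 8 members tested, so a call there says little about a member. On that scale the old libraries were above the young for 6 of the 8, against 96.9% of genes. Sema3f differed by 0.70 ± 0.59 (SE; 95% interval -0.51 to 1.91; limma adjusted p = 0.244) and Plxnd1 by 0.87 ± 0.62 (-0.40 to 2.14; adjusted p = 0.173), so neither was told apart from the markers, and differences of up to 1.91 and 2.14 are within the intervals. Nrp1 differed by 1.54 ± 0.60 (limma adjusted p = 0.0168) and Sema3c by 4.97 ± 0.66 (adjusted p = 1.74e-06). Over all genes tested the median was 3.43. All genes share the subtracted marker values, so their spreads are not independent, and limma's sharing of spread between genes may give too small a p. With the spread of each gene alone, a setting chosen after seeing the data, the adjusted p was 0.00611 for Nrp1, 0.176 for Sema3f and 0.225 for Plxnd1, and 93.5% of genes were called. The call for Nrp1 ended without old mouse 2 or young mouse 2 (highest adjusted p 0.0906 over the fits without 1 library), with a block on the mouse number (0.0836), against young mouse 1 alone (0.241, or 0.188 with the spread also from young mice 2 and 3) and relative to all endothelial markers (0.0973). The values of Nrp2 and Plxna2, 1.29 and 1.97, both became 0.59 with a pseudocount of 0.01 and then did not pass (limma adjusted p = 0.414 and 0.546).

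**Figure D4:**
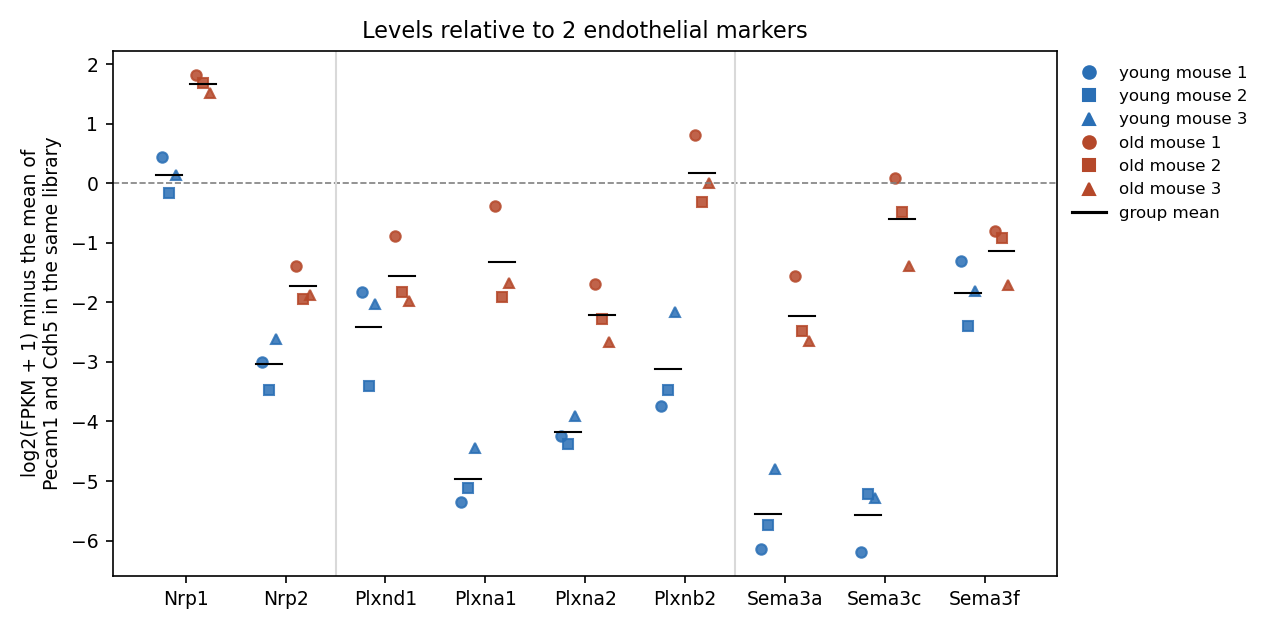
Log2(FPKM + 1) of each member minus the mean of Pecam1 and Cdh5 in the same library, with group means as bars; the dashed line is the level of the markers. Nrp1 lies at 1.52 to 1.83 in old and -0.16 to 0.44 in young libraries, and Sema3f and Plxnd1 overlap between the groups.

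Of 55 other genes named for the pathway, 39 had a usable row and 27 were tested. Of these, 4 were called lower, 0 higher and 23 were not called, with a median of -0.51. Of all genes tested, 2.03% were called lower and 2.95% higher, with a median of -0.01. Of the other plexins, 1 of 5 could be tested. Plxnc1, a receptor for Sema7a named here after its values were seen, was at 1.3 to 2.29 FPKM (old) against 36.8, 1.9 and 16.4 FPKM (young). It was not called (-2.11 ± 0.87, limma adjusted p = 0.206), and was called without young mouse 2 (-3.16, adjusted p = 0.0194). Of the other class 3 semaphorins, Sema3d alone was tested and not called (-0.11 ± 0.39, limma adjusted p = 0.892).

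Of 5 tested semaphorins of other classes, 2 were called lower, both of the membrane-bound class 6, against 2.03% of all genes tested. Sema6a, which is known to bind class A plexins, was at 1.51, 3.14 and 2.07 FPKM (old) against 18.9, 7.42 and 9.78 FPKM (young), and fell by 1.94 ± 0.38 (SE) on the log2 scale (limma adjusted p = 0.0369). Sema6b was at 0.818, 1.55 and 1.02 FPKM (old) against 13.4, 6.82 and 5.85 FPKM (young), and fell by 2.12 ± 0.34 (adjusted p = 0.0233). Sema6d, also of class 6, was not called (-1.26 ± 0.37, limma adjusted p = 0.102). The difference was negative for all 5 of these semaphorins. The call for Sema6a held in 1 of the 6 fits without 1 library, that without young mouse 2, and that for Sema6b in 3, those without any 1 of the young mice (highest adjusted p 0.116 and 0.0879).

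Among the growth factor partners, the VEGF receptor genes Kdr and Flt1 fell by 3.33 ± 0.67 and 2.63 ± 0.49 on the log2 scale (limma adjusted p = 0.0412 and 0.0345). Flt4, another VEGF receptor gene, was not called (-2.33 ± 0.70, adjusted p = 0.11). Kdr was also on the endothelial marker list and Flt4 on the lymphatic one. Kdr, whose product pairs with Nrp1, was at 1.06, 4.93 and 4.43 FPKM (old) against 105, 23.5 and 25 FPKM (young). The call for Kdr ended in each of the 6 fits without 1 library (adjusted p 0.0522 to 0.115), and that for Flt1 held in 1 of them, without old mouse 1 (adjusted p 0.0499 to 0.0831). The ligand gene Vegfa was at 9.06, 10.4 and 13.7 FPKM (old) against 5.07, 10.6 and 16 FPKM (young) and was not called (0.17 ± 0.40, adjusted p = 0.838).

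None of the 14 intracellular effectors tested was called in limma, against 4.98% of all genes tested, so 0 of 14 says little about them. Their median was -0.34, with values from -1.57 to 1.12. The 5 most abundant uncalled genes among the 27 were all effectors, namely Cfl1, an actin-severing protein, at 908 to 1284 FPKM (old) against 1196 to 1678 FPKM (young), Rras, a small GTPase that plexins switch off, at 103 to 177 and 252 to 392 FPKM, the GTPase Rac1 at 71.6 to 92.3 and 122 to 164 FPKM, Gipc1, an adaptor for the Nrp1 tail, at 29.6 to 53.3 and 36.2 to 80.8 FPKM, and the kinase Fyn at 7.06 to 21.3 and 24.8 to 92.3 FPKM. Rras, Rac1 and Fyn did not overlap between the groups (differences of -1.07, -0.72 and -1.57; limma adjusted p = 0.105, 0.138 and 0.169). The same held for the exchange factor Arhgef12, lower in old mice, and for Farp1 and Dpysl3, higher in old mice. Groups did not overlap for 31.1% of all genes tested. An unadjusted p below 0.05 was found for 6 of the 14, against 2315 of the 10010 genes tested, namely Fyn, Rras, Rac1 and the exchange factor Arhgef12, with lower values in old mice, and the GTPase Rnd3 and Dpysl3, with higher ones.

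The genes whose profile over the 6 libraries was most like a member's were sought by the root mean square difference of centred log2(FPKM + 1) values. Nearest to Nrp1 were Pald1 (0.15), the Wnt receptor Fzd4 (0.187) and the ephrin Efnb1 (0.2). Nearest to Nrp2 were Msn, which ties membranes to actin (0.163), the transcript Dnah2os (0.167) and Shank3 (0.198). For Plxnd1 they were Sh3bp5 (0.238), Ctsj (0.249) and the protocadherin Pcdh17 (0.285), and for Sema3f they were Pcdh17 (0.166), Acer2 (0.237) and Ece1, which activates endothelin (0.239). Plxna2 was nearest to Reep3 (0.0688), Trim37 (0.101) and Fzd6 (0.113), and Sema3c to Aadac (0.121), Pcolce2, an enhancer of collagen processing (0.128), and Urah (0.13). For Plxna1 the nearest were Hk1os (0.0511), Tax1bp1 (0.0542) and Ap1g2 (0.0596), and for Plxnb2 they were Sgpl1 (0.067), Irf2bp2 (0.108) and Kpna6 (0.112). Pcdh17 was the gene shared by 2 of these lists. The 6 points of each profile share the group difference, the depth and the cell content of the libraries.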

How the data were processed

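Lung RNA labelled as endothelial was sequenced from 3 old and 3 young mice after acid injury. The authors deposited 1 FPKM table per library, without counts. CASAVA 1.7, Bowtie 0.12.2 and mouse build mm8 are named, per the submitters' processing notes, with no role given. For the counter, the annotation and the use of strand the sources used here give nothing.

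The tables were damaged as received: 3880 of 24720 identifiers were malformed, and altered or empty cells were common. A row was kept if its identifier was well formed, unique and known, its 6 values were readable, and 1 whole-base gene length gave whole fragments in all 6 libraries (tolerance 1e-06 fragments plus a relative 3e-13). This kept 19037 rows, 78.9% of them with the merged exon length of GENCODE M21 on GRCm38, whose coordinates are given. Among the members, Nrp1 and Plxnb2 had another length. The same property gave the fragment numbers. An identifier altered into another valid one would not be seen.

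Rows sharing a symbol were summed. limma 3.58.1 in R 4.3.3 tested log2(FPKM + 1) (lmFit, eBayes with a variance trend, two-sided, no covariates), for genes averaging 1 FPKM or more, and again after subtracting the mean of Pecam1 and Cdh5. The fit was also run on simulated data with no difference in cell content between libraries. That run does not vouch for the fit on the real libraries. Mouse numbers in the labels were not taken as pairs in these fits. The members and gene lists were chosen with earlier results of these data known. The named genes are the members, Pecam1 and Cdh5, called pathway genes and the 5 most abundant uncalled ones, 3 profile neighbours per member, and the most abundant marker of each cell type. Outside this rule, Plxnc1, Sema3d, Sema6d, Flt4, Vegfa, Farp1, Arhgef12, Rnd3, Dpysl3, Lyve1, Pdpn, Prox1 and Cd4 were named after their values were seen.

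The most abundant markers were Esam (10.1 to 46.4 FPKM in old, 111 to 301 in young), Ccl21a (47 to 194 and 138 to 639), Dcn (1085 to 2916 and 76.7 to 153), Acta2 (456 to 583 and 24.4 to 810), Krt18 (648 to 874 and 57.7 to 128), Krt19 (129 to 201 and 7.45 to 24.4), S100a9 (182 to 516 and 27.1 to 12541), Cd68 (56.1 to 192 and 11.7 to 391), Nkg7 (62.6 to 222 and 2.22 to 40.1) and Pf4 (132 to 271 and 47.6 to 681).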

Additional observations from a re-analysis of the deposited data

How the results depend on the processing

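Counts of calls moved with most settings. Of all genes, 498 were called, against 323 with a pseudocount of 0.01, 223 without a filter, 292 with the filter raised to 5 FPKM, 126 with a replicate block, 84 to 403 without 1 library, and 0 both against young mouse 1 alone (2289 at an unadjusted p below 0.05) and with the spread of each gene alone (2030). For the members and other pathway genes together, 9 calls became 5, 1, 5, 0, 0 to 6, 0 (18 unadjusted) and 0 (15) in that order, and for the members alone 5 became 3, 1, 2, 0, 0 to 3, 0 (6) and 0 (6), with 3 also at a pseudocount of 0.1. The filter at 5 FPKM left the called genes Nrp2, Plxna2, Sema3c and Sema6b untested. Among the genes it still tested, every pathway call held, as did the member calls relative to the markers. With the replicate block, 15 pathway genes and 6 members had an unadjusted p below 0.05. Against young mouse 1 with the spread also taken from young mice 2 and 3, 612 genes and 8 of the pathway were called, Nrp1 among them at an adjusted p of 0.0393. This setting and the spread of each gene alone were chosen after seeing the data. Relative to the markers, 9828 genes were called, against 18882 without a filter and 5191 with the stricter one, which test more and fewer genes, and 9600 to 9830 without 1 library. Of the members, 6 calls became 2 with the stricter filter, 3 against young mouse 1 alone under either spread, and 4 to 6 without 1 library. The Nrp1 to Nrp2 difference of 0.24 was 0.04 to 0.38 without 1 library and 1.02 with a pseudocount of 0.1. Array weights, both scalings and rows kept without the fragment test left these counts within 1.5 times, although array weights ended the call for Sema3c. Apart from the genes that the stricter filter left out, the causes were not tested.

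Deviations of same-numbered mice correlated at -0.09, -0.00 and 0.01 across 10010 genes, and those of unlike-numbered mice at -0.18 to 0.16. With 3 mice a group these values cannot show whether same-numbered mice were handled together, so what the block stands for is not known. Low levels limit Sema3a, Plxna2 and Sema3c, for which 26 to 41 fragments stood behind the smallest values. Intervals and fragment numbers cover the spread of 3 mice a group and counting alone.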
